A study of Mus musculus with 16 samples.

Results

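Mitochondrial ribosomal protein genes are those whose symbol begins with Mrpl or Mrps and a digit, and 77 of the 17986 genes listed for all libraries matched that rule. The rule reads the symbol and no measured value. By the assignment used here, 50 encode proteins of the large subunit and 26 of the small subunit. Mrps18a and Mrps30 carry a small subunit name and were counted with the large subunit, where their proteins sit. Mrps36 was counted with neither, since its protein was later placed in a mitochondrial dehydrogenase complex.

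The mitochondrial ribosome translates the few messages that the mitochondrial genome encodes, all of them for membrane subunits of the respiratory chain and of ATP synthase. Its ribosomal RNAs come from the mitochondrial genome, whereas every one of its proteins is encoded in the nucleus, made in the cytosol and imported. Many of these proteins descend from the bacterial ribosome and others were added in the mitochondrial lineage. In neurons, whose synapses draw on oxidative phosphorylation, defects in mitochondrial translation are a known cause of encephalopathy.

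Bulk RNA was sequenced from CA1, a subfield of the hippocampus, cut out of frozen brain sections by laser microdissection, with DNA nanoball libraries. All mice were males of 3 to 6 months on a C57Bl6 background. The labels give a genotype, wild type or N3 -/-, which the design text spells as Neil3-/-, a loss of a DNA glycosylase of base excision repair. How the Neil3 allele was made, and in which cells it acts, is not given in the sources used here. Home cage mice had no intervention, and spatial exploration mice were trained in an open field for 20 min per day and killed 20 min after the last session. Values were used for 2 wild type and 2 N3 -/- home cage libraries and for 3 wild type and 3 N3 -/- exploration libraries. The other 6 of the 16 listed samples, of a learning condition, were not analysed here. The design text counts animals per group, but no label ties a library to an animal. The p-values then measure the spread between these libraries.

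The deposited unit is FPKM, fragments scaled to transcript length and library depth, which allows levels of different genes to be compared per length. Neil3 itself ran against the labels, with 0 to 0.05 FPKM in the 5 wild type libraries and 8.35 to 15.22 FPKM in the 5 N3 -/- libraries. The groups are therefore called WT-labelled and KO-labelled, and every direction by genotype is a direction between labels. Depth was estimated at 18700000 to 19950000 fragments per library. The home cage libraries stand in 1 block of the table and the exploration libraries in the other, so environment cannot be told apart from block. The 18S rRNA gene Rn18s stood at 1714.68 to 2398.35 FPKM in the home cage block and at 5.69 to 10.56 FPKM in the exploration block. Markers of CA1 pyramidal neurons summed to 669.2 to 809.4 FPKM in every library, and none of the 8 was at 0 throughout. Single markers varied more than this sum. In KO-labelled home cage replicate 2, Wfs1 was at its lowest, 64.88 FPKM, and Mpped1 at its highest, 234.32 FPKM. Dcn, of the same list, stood at 27.24 FPKM in that library and at 0.2 to 2.82 FPKM in the others. The dentate marker Lct was at its lowest there, 1.06 FPKM, against 5.44 to 22.29 FPKM in the others. Wfs1 was at its highest, 238.69 FPKM, in WT-labelled exploration replicate 3.

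The promoters of the 3 members with the largest log2 change in a called comparison, Mrpl53, Mrps33 and Mrpl33, are printed to show what lies upstream of them. Each stretch is the 250 bases before the annotated start, 5′ to 3′ on the gene's own strand, from RefSeq on GRCm38.p6. Capitals mark matches on either strand to 1 of 5 motifs: NRF1 as GCGC, any 2 bases and GCGC again, ETS as CCGGAAG, YY1 as AAGATGGC, SP as GGGCGG and ERR as AAGGTCA. ETS letters are the core read by GABP, which with NRF1 is a known activator of nuclear genes for mitochondrial proteins. Mrpl53 lies on the plus strand at chr6:83109108-83109932, Mrps33 on the minus strand at chr6:39801804-39810936 and Mrpl33 on the plus strand at chr5:31613951-31622644.
Mrpl53: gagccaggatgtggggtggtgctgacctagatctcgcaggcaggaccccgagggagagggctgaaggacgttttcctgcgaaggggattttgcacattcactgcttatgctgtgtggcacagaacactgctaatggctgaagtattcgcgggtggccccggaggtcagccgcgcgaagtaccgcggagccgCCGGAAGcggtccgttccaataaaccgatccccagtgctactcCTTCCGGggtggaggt
Mrps33: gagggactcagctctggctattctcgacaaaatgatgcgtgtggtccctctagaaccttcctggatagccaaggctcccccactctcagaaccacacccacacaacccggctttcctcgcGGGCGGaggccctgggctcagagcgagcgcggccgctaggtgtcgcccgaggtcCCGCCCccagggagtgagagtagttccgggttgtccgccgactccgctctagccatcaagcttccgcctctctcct
Mrpl33: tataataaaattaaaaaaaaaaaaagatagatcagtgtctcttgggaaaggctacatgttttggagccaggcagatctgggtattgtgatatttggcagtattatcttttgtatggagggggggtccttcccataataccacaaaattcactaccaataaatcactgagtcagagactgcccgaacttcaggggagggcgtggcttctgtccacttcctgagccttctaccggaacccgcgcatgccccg
The Mrpl53 stretch, chr6:83108858-83109107, held 2 ETS matches, whose first bases lie at -59 and -16 from the start. That of Mrps33, chr6:39810937-39811186, held 2 SP matches, at -130 and -76. The Mrpl33 stretch, chr5:31613701-31613950, held no match inside the printed bases. The counts that follow use a wider window, which runs to 50 bases after the start. In it, Mrpl33 had an ETS match at -3, across the start, and Mrps33 an SP match at 31 and an ETS match at 39. These 3 genes were picked by their log2 change, and no link between a motif and the change was tested.

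Promoter windows of 300 bases, 250 before to 50 after the start, were found for 68 of the 77 members. The 9 without one were Mrpl4, Mrpl13, Mrpl15, Mrpl19, Mrpl38, Mrpl54, Mrps28, Mrps34 and Mrps35. An ETS match stood in 35.3% of the members' windows, against 18.7% of those of the tested genes and 9.12% of all windows. YY1 letters stood in 17.6% of the members' windows, against 5% of those of the tested genes and 2.88% of all windows. For NRF1 the shares were 20.6%, 14.6% and 6.43%, and for ERR they were 5.88%, 2.89% and 4.66%. The SP letters went the other way, with 50% of the members' windows against 66% of those of the tested genes and 35.9% of all windows. Motifs can overlap one another, and a match is a description of letters.

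Another gene started within 1000 bases upstream on the opposite strand for 26 of the 68 members (38.2%), against 18.9% of tested genes. Among these, Mrpl46 and Mrps11 share 1 such start region on chromosome 7, with starts 42 bases apart, and encode proteins of the large and of the small subunit. Mrpl18 starts 238 bases from Tcp1, a subunit of the cytosolic chaperonin. The members lie on 17 chromosomes, with 10 on chromosome 11. The span of 25 members (32.5%) overlapped another gene, against 48.2% of tested genes. Use of strand in the counting is not given in the sources used here, so the values of these 25 are uncertain by whatever reads the partner gives. Of the members named below, Mrpl53, Mrpl33, Mrpl37, Mrpl49, Mrpl18 and Mrps6 are among the 25. So are Mrpl2, Mrpl19, Mrpl27, Mrpl48, Mrps2, Mrps7, Mrps9, Mrps18a, Mrps18b and Mrps28. The gene that Mrpl18 overlaps is Tcp1, which stood at 95.12 to 105.75 FPKM. Mrps33, Mrpl12 and Mrps16 are not among the 25.

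All 77 members were detected in CA1, most of them above the level of the median tested gene. Their mean over the 10 libraries ran from 5.01 to 127.64 FPKM with a median of 31.52 FPKM, against a median of 10.59 FPKM for the 11892 genes tested. In every library 72 members were at 10 FPKM or more and all 77 were at 1 FPKM or more, so the filter on low values removed none. The highest means were those of Mrps21 (127.64 FPKM), Mrpl20 (125.19 FPKM), Mrps33 (97.65 FPKM), Mrpl42 (95.92 FPKM) and Mrpl12 (94.05 FPKM). The lowest were those of Mrpl17 (5.01 FPKM), Mrpl1 (6.94 FPKM), Mrpl19 (7.44 FPKM), Mrpl35 (8.56 FPKM) and Mrpl15 (9.67 FPKM).

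By place in the ribosome, median levels were 33.82 FPKM for the large subunit and 30.23 FPKM for the small subunit. The 4 stalk proteins, which recruit translation factors, had a median of 51.58 FPKM. The 8 proteins of the central protuberance, where the subunits meet above the tRNAs, had a median of 47.06 FPKM. The 8 that line or surround the exit tunnel, through which the new chain leaves toward the inner membrane, had a median of 24.02 FPKM.

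Libraries differed little for most members: 73 of 77 had their highest library under 2-fold above their lowest. The largest residual SDs of log2(FPKM + 1) within groups were 0.25 for both Mrpl33 and Mrpl32, 0.21 for Mrpl20 and 0.19 for Mrps16 and Mrps6. The median was 0.13 for the members and 0.12 for all tested genes. Mrpl32 is made as a precursor that a mitochondrial protease must cut before it joins the ribosome. Its 3 KO-labelled exploration libraries stood at 51.71, 32.98 and 30.12 FPKM and its other 7 between 28.87 and 36.25 FPKM, so its spread came from 1 library.

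That library, KO-labelled exploration replicate 1, stood apart for the members as a group. It was the highest of the 10 for 54 members and above the other KO-labelled exploration libraries for 71 members, against 46.4% of tested genes. KO-labelled home cage replicate 2 was the lowest of the 10 for 41 members and below its partner for 64 members, against 42.7% of tested genes. The median deviation of the 77 members from their own means was 0.25 on the log2 scale in the former and -0.19 in the latter, and between -0.10 and 0.08 in the other 8. Summed over members, the home cage libraries gave 2787.3 and 2749.6 FPKM (WT-labelled) and 2923.6 and 2572.6 FPKM (KO-labelled). The exploration libraries gave 3184.9, 3083.8 and 3245.9 FPKM (WT-labelled) and 3747.8, 3204.9 and 3121.0 FPKM (KO-labelled). All 6 exploration sums lay above all 4 home cage sums. The total over all genes listed for all libraries separated the blocks in the same way. Its lowest exploration value was 436171 FPKM (WT-labelled replicate 2), and its highest home cage value was 431422 FPKM (KO-labelled replicate 1). The members' share of this total did not overlap either: 0.634% to 0.678% for home cage libraries, 0.699% to 0.803% for exploration libraries. In bulk RNA, fewer cells of a type and less RNA per cell cannot be told apart.

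**Figure D1:**
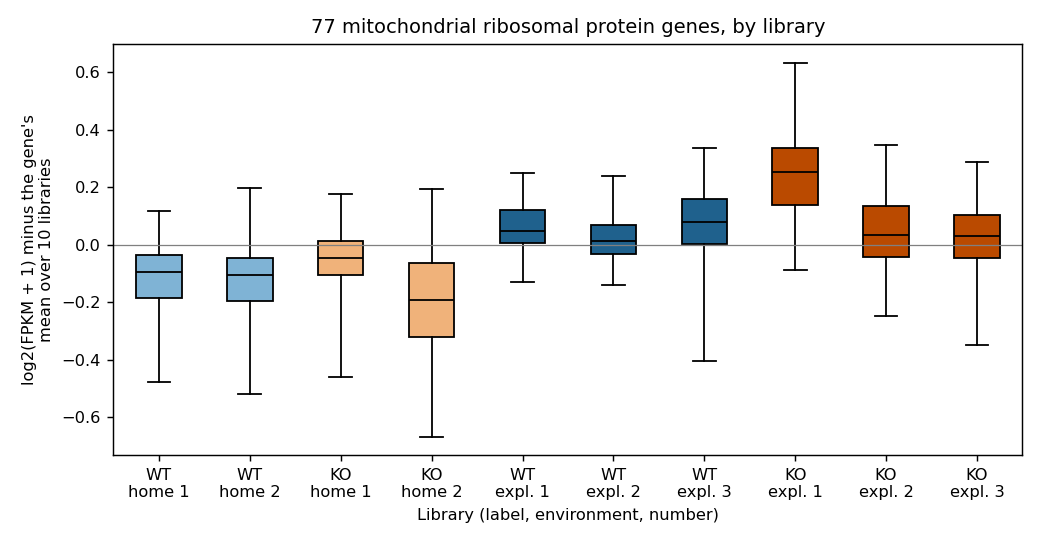
Deviation of each of the 77 members from its own mean over 10 libraries, on the log2(FPKM + 1) scale, by library and coloured by group. KO-labelled exploration replicate 1 has the highest median (0.25) and KO-labelled home cage replicate 2 the lowest (-0.19).

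The first comparison asked whether the members differed between home cage and exploration, as the mean of the change in both genotype labels. They were higher in exploration: 35 of 77 were called higher and 0 lower with limma at an adjusted p under 0.05 over all tested genes, with 45 of 77 at an unadjusted p under 0.05. Over all tested genes 31.9% were called, 12.6% higher and 19.2% lower, and 44.2% reached the unadjusted level. The members' median log2 change was 0.19, against -0.03 over all tested genes, and 69 of 77 changes were above 0. With FPKM rescaled to TPM, which sums to the same total in every library, the members' median was 0.09 against -0.13, and 59 of 77 were above 0. In 20 members every exploration library was above every home cage library, and in 1 member every one was below, where all tested genes gave 6.49% and 10.4%. Of the 35 rises, 18 also had no overlap between the libraries.

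In the small subunit, 13 of 26 members rose, with a median log2 change of 0.25. Mrps33, a small protein with no bacterial counterpart, changed most. It stood at 75.47 and 72.37 FPKM in the WT-labelled and 81.35 and 63.44 FPKM in the KO-labelled home cage libraries. In exploration it stood at 107.04, 103.9 and 102.1 FPKM in the WT-labelled and 140.13, 121.11 and 109.59 FPKM in the KO-labelled libraries. Every exploration library lay above every home cage library, and the log2 change was 0.63 (SE 0.08, limma adjusted p = 0.00044), or 1.55-fold.

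Mrps16, which has a bacterial homologue and has been found mutated in a human mitochondrial translation disorder, also rose without overlap. Its home cage libraries stood at 48.06 and 47.15 FPKM (WT-labelled) and 50.19 and 39.43 FPKM (KO-labelled). Its exploration libraries stood at 59.42, 51.78 and 63.66 FPKM (WT-labelled) and 79.86, 63.14 and 58.44 FPKM (KO-labelled). The log2 change was 0.43 (SE 0.10, limma adjusted p = 0.00747). The other rises of the small subunit were Mrps7, Mrps9, Mrps10, Mrps11, Mrps14, Mrps18c, Mrps22, Mrps24, Mrps28, Mrps31 and Mrps34, with log2 changes from 0.25 to 0.41. Of the 3 paralogs that share the Mrps18 name, Mrps18c (0.41) and Mrps18a (0.23, large subunit) rose, while Mrps18b was at 0.04 and did not pass.

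The lowest change of any member was that of Mrps15, also of the small subunit, at -0.17 (SE 0.06, limma adjusted p = 0.0574). It stood at 31.10, 34.06, 31.03 and 31.34 FPKM in the 4 home cage libraries. Its exploration values were 30.42, 30.48 and 29.97 FPKM (WT-labelled) and 27.99, 27.90 and 23.06 FPKM (KO-labelled). It was the 1 member with every exploration library below every home cage library, and it did not pass the threshold.

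In the large subunit, 22 of 50 members rose, with a median log2 change of 0.18. The stalk accounted for 3 of these with its 4 members: Mrpl53, Mrpl12 and Mrpl11 rose and Mrpl10, at 0.04, did not pass. Mrpl12 is the protein that, as in bacteria, forms the flexible arm of the stalk, and it has been reported to bind the mitochondrial RNA polymerase as well. Its home cage libraries stood at 77.98 and 71.12 FPKM (WT-labelled) and 86.72 and 67.71 FPKM (KO-labelled). In exploration they stood at 95.23, 94.25 and 98.37 FPKM (WT-labelled) and 135.1, 106.98 and 107.03 FPKM (KO-labelled). The groups did not overlap, and the log2 change was 0.47 (SE 0.08, limma adjusted p = 0.00239).

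Mrpl53, a protein of the stalk base without a bacterial counterpart, stood at 51.04 and 59.50 FPKM (WT-labelled) and 42.79 and 36.91 FPKM (KO-labelled) in the home cage. In exploration it stood at 67.52, 65.09 and 71.07 FPKM (WT-labelled) and 85.23, 69.41 and 59.18 FPKM (KO-labelled). The lowest exploration library, KO-labelled replicate 3, lay just below the highest home cage library. The log2 change was 0.55 (SE 0.09, limma adjusted p = 0.00178).

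Mrpl33, a short protein with a bacterial homologue, stood at 29.84 and 33 FPKM (WT-labelled) and 37.04 and 30.37 FPKM (KO-labelled) in the home cage. The exploration libraries stood at 49.32, 49.63 and 51.30 FPKM (WT-labelled) and 63.52, 52.58 and 35.88 FPKM (KO-labelled). The WT-labelled libraries did not overlap, whereas KO-labelled exploration replicate 3 fell below a KO-labelled home cage library. The log2 change was 0.60 (SE 0.13, limma adjusted p = 0.00522).

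Of the 8 members of the central protuberance, 4 rose: Mrpl18, Mrpl27, Mrpl46 and Mrpl48, with log2 changes from 0.27 to 0.37. Mrpl38 (-0.12), Mrpl40 (0.15), Mrpl52 (0.17) and Mrps30 (0.14) did not pass. Of the 8 members around the exit tunnel, 2 rose, Mrpl23 (0.41) and Mrpl45 (0.18), which tethers the ribosome to the inner membrane. The median log2 change was 0.22 in the central protuberance and 0.06 around the exit tunnel. Outside these regions the rises of the large subunit were Mrpl2, Mrpl9, Mrpl13, Mrpl20, Mrpl28, Mrpl30, Mrpl33, Mrpl42, Mrpl49, Mrpl50, Mrpl51, Mrpl54 and Mrps18a, from 0.17 to 0.60. The pair with adjoining starts, Mrpl46 and Mrps11, changed by 0.27 each.

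Counts were also taken by descent. In the large subunit 12 of 30 members with a bacterial homologue and 10 of 20 without rose, with a median log2 change of 0.18 in both. In the small subunit 9 of 16 with and 4 of 10 without rose, with medians of 0.26 and 0.21. No difference between subgroups was tested.

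**Figure D2:**
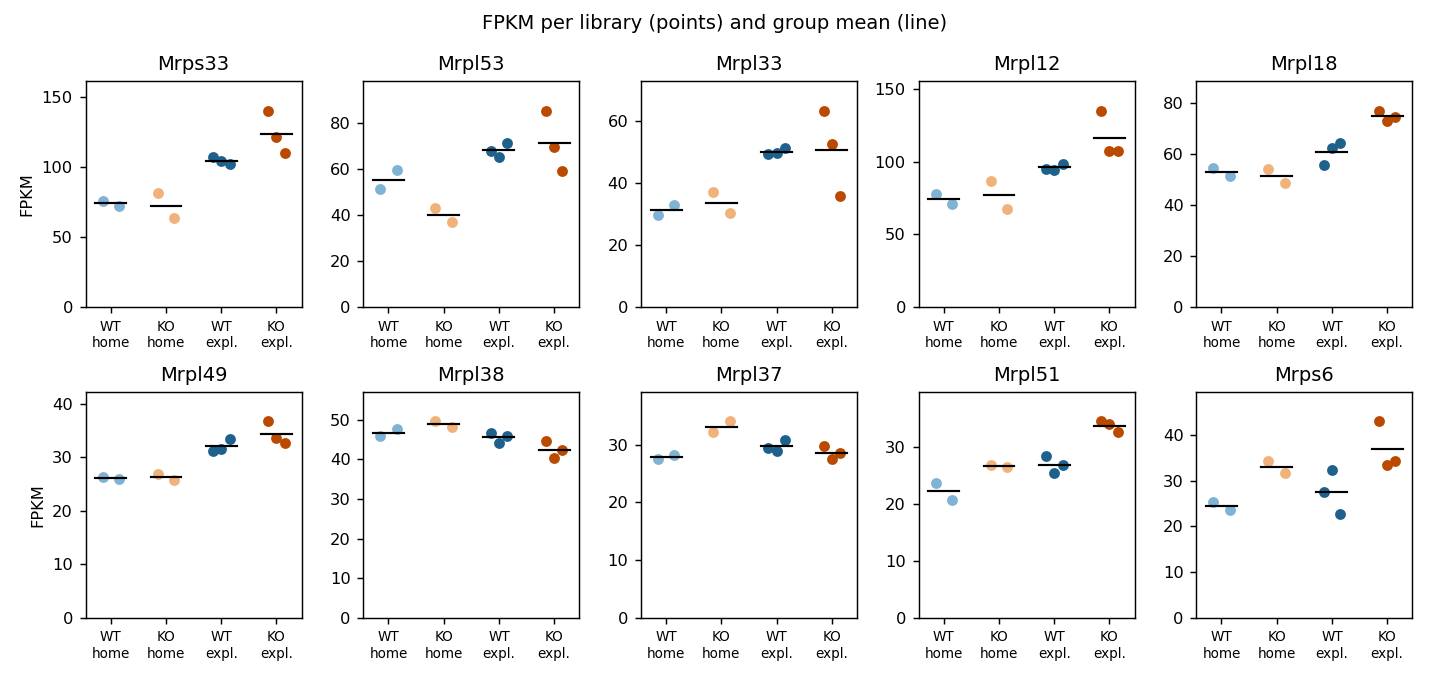
FPKM of 10 members in each library, by group, with bars at the group mean. Mrps33 and Mrpl12 show no overlap between the 4 home cage and 6 exploration libraries, whereas Mrpl33 overlaps through KO-labelled exploration replicate 3.

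Across the whole table the change was higher for shorter transcripts, and the members are short. Their median transcript length was 1226 nt against 2899 nt for tested genes, and the Spearman correlation of the log2 change with length was -0.49 over 11757 genes and -0.29 over the 77 members. These correlations run across genes, which share the same 10 libraries. Among transcripts under 1000 nt, 26 members had a median log2 change of 0.24, the same as the 824 genes of that length, and 53.8% of members against 45.4% of genes were called higher. From 1000 to under 2000 nt, 29 members had a median of 0.20 against 0.09, with 48.3% against 22.9% called higher. At 2000 nt or more, 22 members had a median of 0.16 against -0.08, with 31.8% against 6.35% called higher.

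Length trends also differed by library. The Spearman correlation of each gene's deviation with length was 0.46 in KO-labelled home cage replicate 2 and -0.48 in KO-labelled exploration replicate 1, the libraries in which the members stood lowest and highest. With trends on length and GC content removed in each library, an alternative chosen after seeing the data, 14 members were called higher and 5 lower, and 12 of the 35 rises remained. The background was then 10.1% higher and 14.2% lower, and the members' median log2 change was 0.10 against -0.02. Mrps33 (0.37), Mrpl53 (0.31), Mrpl33 (0.28), Mrpl12 (0.35) and Mrps16 (0.41) were still called, with limma adjusted p from 0.000664 to 0.0455. The 5 called lower were Mrpl22, Mrpl37, Mrpl38, Mrps15 and Mrps17. How much of the members' change goes with RNA quality or library making was not tested.

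**Figure D3:**
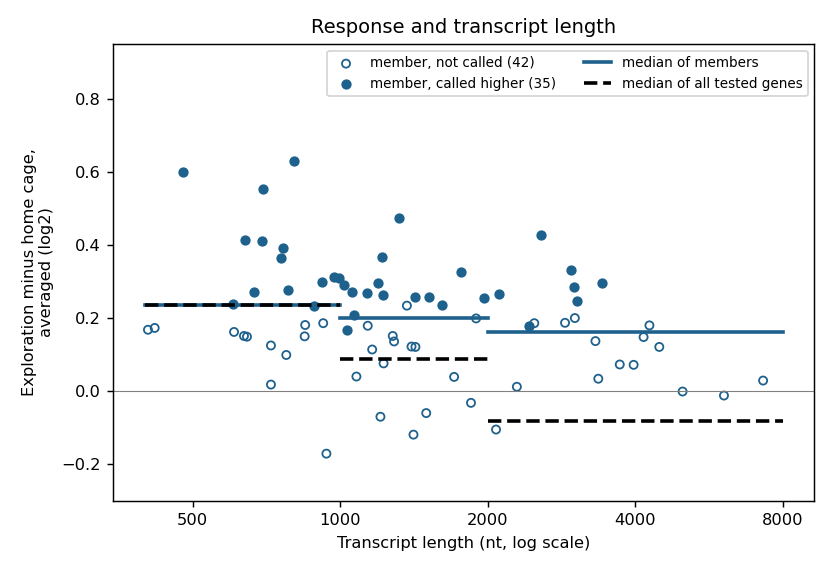
Log2 change from home cage to exploration, averaged over both genotype labels, against transcript length on a log axis, for the 77 members (points). Lines give the medians of the members and of all tested genes in each length class. Both medians fall with length, and the members of 2000 nt or more have a median of 0.16 where all genes of that length have -0.08.

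Some marker genes of other cell types were also called in the averaged environment comparison. Their counts stand against 12.6% of all tested genes called higher and 19.2% lower. With lists this short, 1 of 7 or 1 of 8 called higher is near that background. Over their marker lists, 5 of 8 oligodendrocyte genes, 4 of 8 astrocyte genes, 3 of 8 interneuron genes, 3 of 8 microglia genes and 4 of 4 blood genes tested were called higher and none lower. Of the CA1 pyramidal list, 1 of 8 was higher and 5 were lower, with a median log2 change of -0.26. Of the CA2 and CA3 list, 2 of 5 tested were higher and 0 lower, with a median of 1.02, the largest of the marker lists. This median was 2.22 within the KO-labelled libraries and 0.02 within the WT-labelled ones, where 0 of 5 were called. Among those tested, 1 of 4 dentate genes, 1 of 7 endothelium genes and 0 of 2 choroid plexus genes were higher and 0 lower. The choroid plexus gene Ttr was uneven between libraries. It stood at 218.7 FPKM in WT-labelled home cage replicate 1 and at 118.06 and 93.56 FPKM in WT-labelled exploration replicates 1 and 2. In every other library it was at 4.24 FPKM or less. The summed oligodendrocyte markers ran from 149.8 to 241.7 FPKM in the home cage and from 211.7 to 389.1 FPKM in exploration. None of these lists had a gene at 0 in all libraries, and their part in the members' change was not tested.

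Within the WT-labelled libraries, 4 members were called higher and 0 lower in exploration, against 6.31% of tested genes called, 2.02% higher and 4.29% lower. The members' median log2 change was 0.15 against -0.02, and 70 of 77 were above 0. On the TPM scale the median was 0.06 against -0.11 over all genes, and 53 of 77 were above 0. The 4 were Mrpl33 (0.66, SE 0.18), Mrps33 (0.49, SE 0.11), Mrpl30 (0.35, SE 0.09) and Mrpl49 (0.28, SE 0.08), with limma adjusted p from 0.0278 to 0.0497. Mrpl49 stood at 26.39 and 25.97 FPKM in the home cage and at 31.27, 31.51 and 33.46 FPKM in exploration. Mrpl30 stood at 58.48 and 61.43 FPKM and at 80.51, 75.45 and 74.25 FPKM. Without overlap of the libraries, 50 members were higher and 3 lower, where all tested genes gave 19.7% and 28.1%. In the same comparison 5 of 8 oligodendrocyte markers (median log2 change 0.55) and 4 of 8 astrocyte markers (0.38) were higher. So were 4 of 8 microglia markers (0.37) and 3 of 4 blood markers (1.06). Of the CA1 pyramidal markers 1 of 8 was lower (-0.01), and 0 of 5 CA2 and CA3 markers tested were called (0.02). The part of these markers was not tested. Leaving out 1 library took the count of calls to between 0 and 7, and any 1 of the 5 WT-labelled libraries took it to 0 or 1. The KO-labelled exploration libraries enter through the shared estimate of spread, and without replicate 1 the count was 7 and without replicate 2 it was 1. The share of all tested genes called in these fits is not given here.

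Within the KO-labelled libraries, 26 members were called higher and 2 lower, against 28.6% of tested genes called, 12% higher and 16.6% lower. The median log2 change was 0.24 against -0.04, and 0.14 against -0.15 on the TPM scale. The largest rises were those of Mrpl53 (0.81, SE 0.13, limma adjusted p = 0.00225) and Mrps33 (0.77, SE 0.11, limma adjusted p = 0.00181). Mrpl12 (0.59), Mrps16 (0.57) and Mrpl33 (0.54) followed. The 2 falls were in the large subunit, in members with no bacterial homologue. Mrpl37 stood at 32.17 and 34.06 FPKM in the home cage and at 29.70, 27.43 and 28.60 FPKM in exploration, a log2 change of -0.21 (SE 0.07, limma adjusted p = 0.048). Mrpl38 stood at 49.61 and 48.26 FPKM and at 44.53, 40.44 and 42.26 FPKM, a change of -0.20 (SE 0.07, limma adjusted p = 0.0474). Both falls were without overlap. Of the markers, 4 of 5 tested for CA2 and CA3 neurons were higher in the same comparison (median log2 change 2.22) and 5 of 8 for CA1 pyramidal neurons were lower (-0.40). Among the glial lists 0 of 8 oligodendrocyte (0.10), 1 of 8 astrocyte (-0.05) and 0 of 8 microglia markers (0.03) were higher. The part of these markers was not tested. In all, 37 members were higher and 4 lower without overlap, where all tested genes gave 22.2% and 29.9%.

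These KO-labelled counts changed when the libraries that stood apart were left out. The share of all tested genes called is not given for fits that left out 1 library. A loss of calls across all genes therefore cannot be told apart from one in the members. Without WT-labelled exploration replicate 1, which shares the estimate of spread, the count of calls went from 28 to 18. It went to 16 without KO-labelled exploration replicate 1. It also fell without KO-labelled home cage replicate 2, which leaves 1 library in that group. Without both, 4 members were called, against 2.83% of genes higher and 4.51% lower, and the median was 0.08. Mrpl53 (0.57) and Mrps33 (0.50) were still called, and Mrpl12, Mrps16, Mrpl33, Mrpl37 and Mrpl38 were not. For the average over both labels, leaving out both libraries gave 18 rises and no fall, and Mrps33, Mrpl33, Mrpl53, Mrpl12 and Mrps16 were among them. That count was 15 without KO-labelled home cage replicate 2, 17 without WT-labelled home cage replicate 2 and 23 without WT-labelled home cage replicate 1.

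The responses of the labels were then compared with each other. No member was called in the difference in response with limma (5 of 77 at an unadjusted p under 0.05), where 0.875% of all tested genes were called (0.362% higher, 0.513% lower) and 16.1% reached the unadjusted level. The members' median difference was 0.09, against 0.00 over all genes, and the median SE of a member was 0.15. Mrpl53 (0.52, SE 0.19, adjusted p = 0.188 with limma) and Mrpl18 (0.35, SE 0.12, adjusted p = 0.159 with limma) rose more in the KO-labelled libraries but did not pass. Mrpl37 went the other way (-0.29, SE 0.10, adjusted p = 0.168 with limma). In the WT-labelled libraries it stood at 27.53 and 28.24 FPKM in the home cage and at 29.34, 28.94 and 30.76 FPKM in exploration, so it was higher without overlap there and lower without overlap in the KO-labelled libraries. The changes had the same sign in both labels for 69 of 77 members (89.6%), against 69.5% of tested genes, and 4 members were called higher in both.

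**Figure D4:**
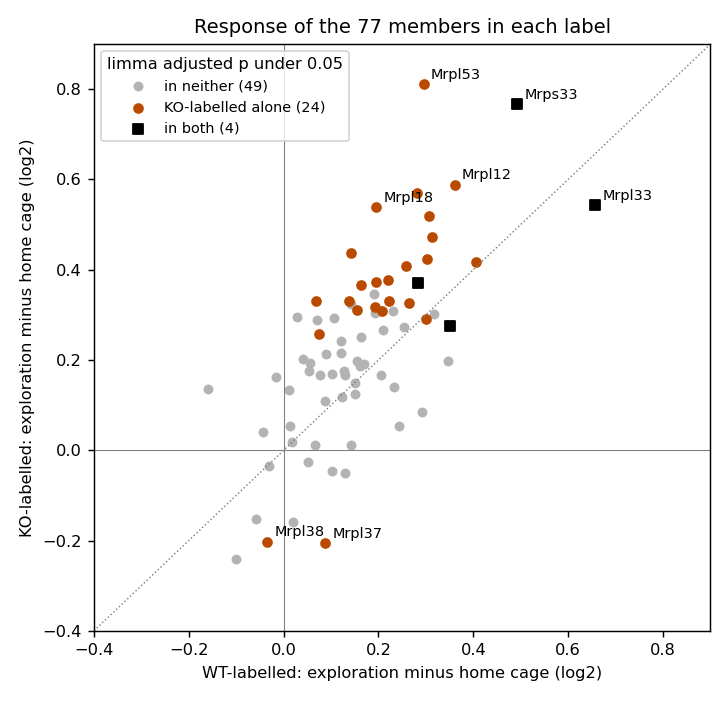
Log2 change from home cage to exploration of each member in the KO-labelled libraries against that in the WT-labelled libraries. Most points, 65 of 77, are above 0 on both axes, with Mrps33 and Mrpl33 at the far upper right and Mrpl53 high on the KO-labelled axis.

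Between the genotype labels, the members differed little. In the home cage 0 of 77 were called with limma (8 at an unadjusted p under 0.05), against 3.57% of tested genes called (2.12% higher, 1.45% lower; 18.3% at the unadjusted level), and the median log2 difference was -0.01 against -0.02. In exploration 0 were called with limma (8 at an unadjusted p under 0.05), against 0.597% of tested genes (0.193% higher, 0.404% lower; 17.2% at the unadjusted level), and the median was 0.05 against -0.02. No member differed by more than 0.5 on the log2 scale in either environment, with median SEs of 0.11 and 0.09. Mrpl53 had the largest difference in the home cage, -0.46 (SE 0.14, limma adjusted p = 0.107), with 51.04 and 59.50 FPKM against 42.79 and 36.91 FPKM in the KO-labelled libraries. Without overlap, 9 members were higher and 10 lower in the KO-labelled home cage libraries, against 21% and 25.9% of tested genes. In exploration 11 were higher and 2 lower, against 11.4% and 13.5%.

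Averaged over both environments, 2 members were called higher in the KO-labelled libraries and 0 lower, against 2.13% of tested genes called, 0.774% higher and 1.35% lower. At an unadjusted p under 0.05 there were 8 members, against 20.2% of tested genes. Taking all 5 libraries of each label, no member was free of overlap, where 0.933% of tested genes were higher and 1.34% lower without it. Mrpl51, of the large subunit, stood at 23.79 and 20.79 FPKM in the WT-labelled and 26.96 and 26.50 FPKM in the KO-labelled home cage libraries. In exploration it stood at 28.47, 25.45 and 26.97 FPKM (WT-labelled) and 34.59, 34.08 and 32.73 FPKM (KO-labelled). Within each environment the labels did not overlap, and the log2 difference was 0.29 (SE 0.06, limma adjusted p = 0.0323).

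Mrps6, a small subunit protein with a bacterial homologue, stood at 25.26 and 23.63 FPKM (WT-labelled) and 34.41 and 31.72 FPKM (KO-labelled) in the home cage. Exploration gave it 27.62, 32.25 and 22.67 FPKM (WT-labelled) and 43.03, 33.54 and 34.27 FPKM (KO-labelled). It did not overlap between labels in either environment, and the log2 difference was 0.42 (SE 0.10, limma adjusted p = 0.0491). Its span on chromosome 16 holds Slc5a3, a myo-inositol transporter gene, which stood at 1.53 to 3.96 FPKM and had a difference of 0.29 (SE 0.10, limma adjusted p = 0.123). Each of the 2 calls held in only 2 of the 10 fits that left out 1 library, at differences of 0.24 to 0.33 for Mrpl51 and 0.36 to 0.48 for Mrps6. In the same averaged comparison 3 of 8 astrocyte markers (median log2 difference 0.34) and 0 of 8 microglia markers (0.22) were called higher. In the home cage alone these counts were 3 and 2. There 2 of 8 CA1 pyramidal markers and 1 of 7 endothelium markers tested were called higher. Called lower were 1 CA1 pyramidal marker, 1 of 4 dentate and 1 of 2 choroid plexus markers tested. None of 5 CA2 and CA3 markers tested was called, at a median log2 difference of -1.18. All 5 were lower without overlap, against 25.9% of tested genes. The part of these markers was not tested.

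Genes that work with the members were read from lists that were written out with the members, and their counts stand against 12.6% of all tested genes called higher and 19.2% lower in the averaged environment comparison. Of 6 mitoribosomal proteins with other names, 1 rose in exploration averaged over both labels and none fell. It was Chchd1, of the small subunit, with 54.93 ± 6.17 (SD, n = 2) and 53.94 ± 11.8 (SD, n = 2) FPKM in the WT- and KO-labelled home cage libraries. In exploration it stood at 80.37 ± 2.38 (SD, n = 3) and 93.09 ± 18.7 (SD, n = 3) FPKM, and the log2 change was 0.66 (SE 0.11, limma adjusted p = 0.00168). The counts of the other lists were mixed. Of 13 mitochondrial translation factors 1 rose, Tsfm (0.24), and 2 fell, Gfm2 (-0.51) and Guf1 (-0.48). Of 22 assembly factors 1 rose, Malsu1 (0.32), and 1 fell, Mettl17 (-0.21). Of 22 mitochondrial tRNA synthetases 1 rose, Yars2 (0.29), and 1 fell, Sars2 (-0.25), which starts 147 bases from the member Mrps12 (0.13, limma adjusted p = 0.212).

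Of 18 genes that copy, transcribe or process the mitochondrial genome and its RNA, 3 rose and 2 fell. Slirp (0.53), which guards mitochondrial messages, Trmt10c (0.33), part of mitochondrial RNase P, and Tfam (0.23), which packages the mitochondrial genome, rose. Lrpprc (-0.23), the binding partner of Slirp, and Elac2 (-0.30), which cuts the ends of mitochondrial tRNAs, fell. Of 12 regulators of mitochondrial biogenesis, 2 rose, Esrra and Tfam, and 4 fell, Gabpb1 (-0.41), Ppargc1b (-0.39), Nrf1 (-0.24) and Pprc1 (-0.24). Esrra, a nuclear receptor that drives oxidative genes, stood at 29.26, 27.67, 28.38 and 22.62 FPKM in the home cage libraries. In exploration it stood at 32.49, 35.58 and 34.88 FPKM (WT-labelled) and 44.31, 37.22 and 38.86 FPKM (KO-labelled), a log2 change of 0.45 (SE 0.07, limma adjusted p = 0.00155). Nrf1 stood at 4.83, 5.71, 4.15 and 5.06 FPKM in the home cage and between 3.57 and 4.43 FPKM in exploration. With lists this short, a share of 1 in 6, as for 3 of 18 or 2 of 12, is near that background. No gene of these 6 lists was called between the genotype labels when averaged over environments. Genes encoded by the mitochondrial genome were not analysed here.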

How the data were processed

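The authors deposited FPKM per gene and library, per the file headers, in 2 blocks of 6 exploration and 4 home cage libraries, joined here on NCBI gene ID. The submitters' processing notes name HISAT, StringTie, GATK, Bowtie2 and RSEM and the builds GRCm38 and mm10, with no role or version. Whether the blocks were normalized together, and how many fragments were counted, is not given in the sources used here. The steps between values of 0.08 to 0.6 FPKM gave an estimate of depth, by which 1 fragment on 1 kb was worth 0.0557 to 0.0594 FPKM.

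FPKM are not counts, so log2(FPKM + 1) was fitted with limma 3.58.1 (R 4.3.3) with a variance trend, for genes at 1 FPKM or more in at least 2 libraries (11892 genes). A fold change on this scale understates that of low genes. All 10 libraries were fitted with 1 mean per group (6 residual, 5.71 prior degrees of freedom), which gave 7 comparisons. Adjusted p-values are Benjamini-Hochberg values over all tested genes, called under 0.05. The script was tested on simulated data. Groups came from the genotype and source labels, and replicate numbers follow accession order. Lengths and GC came from GENCODE M21 for 98.9% of tested genes and all members.

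The members, lists and tests were chosen with earlier results of these data known. Named by rule were, per comparison, the 5 largest called rises and falls, the 5 highest and lowest means and the 5 largest residual SDs, and up to 3 called genes of each other list. Other names were chosen after their values were seen. Alternatives were another pseudocount (0.1), no filter or one of 5 FPKM, size factors, TPM, only the groups compared, no variance trend and each library left out. Removal of length and GC trends, quantile normalization and leaving out both libraries that stood apart were added after seeing the data.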

Additional observations from a re-analysis of the deposited data

How the results depend on the processing

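No paired analysis was possible because the labels give no replicate numbers. Counts of called members moved by over 1.5 times as follows, and the cause was not tested. The share of all tested genes called is not given beside these counts, and it can move with the setting too. In the home cage genotype comparison it was 2.12% higher and 1.45% lower in the main fit. With no filter it was 0.0778% and 0.0723%. A count that moves is therefore not a result about the members alone. The 35 calls of the averaged environment comparison became 22 with TPM (18 higher and 4 lower: Mrpl37, Mrpl38, Mrps2 and Mrps15), 19 with length and GC trends removed and 18 without both libraries that stood apart. TPM also moved the median of all genes from -0.03 to -0.13 and that of the members from 0.19 to 0.09. The 28 KO-labelled environment calls became 17 with TPM, 15 with those trends removed, 15 with no filter, 16 with no variance trend, 10 with only the groups compared and 4 without both libraries. The 4 WT-labelled environment calls became 2 with TPM, a 5 FPKM filter, trends removed or a pseudocount of 0.1, 1 with no filter or no variance trend, 10 with only the groups compared and 9 without both libraries. The 2 averaged genotype calls became 1 with no variance trend or a pseudocount of 0.1 and 0 with no filter or without both libraries, and in the home cage 1 fall was called with trends removed. Leaving out 1 library gave 15 to 42 calls for the averaged environment, 4 to 34 for KO-labelled, 0 to 7 for WT-labelled, 0 to 2 for the averaged genotype, 0 to 1 for genotype in the home cage, and 0 to 0 for genotype in exploration and for the difference in response. Mrps33, Mrpl33, Mrpl53, Mrpl12 and Mrps16 were called in the averaged environment comparison in all 10 fits without 1 library and under all 9 other settings. Of the 18 called changes that were followed through the alternatives, none changed sign, whereas Mrpl22, at 0.02 and not called in the averaged environment comparison, was called lower with trends removed. With 2 or 3 libraries a group, the median SE of a member was 0.07 for averaged comparisons and 0.15 for the difference in response.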
